A study of Oryza sativa with 16 samples.

Results

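Seeds of Zhonghua 11 (ZH), a japonica rice that the study describes as sensitive to cold, were compared before and after 2 days at low temperature. The members were 4 of the 16 arrays of the series: the 2 arrays of ZH 4D, whole seeds harvested at 4 days after fertilization (DAF) from plants kept in a phytotron at day and night temperatures of 28°C and 22°C, and the 2 arrays of ZH 4D-2DC, seeds of plants moved to 14°C at 4 DAF and harvested 2 days later, at 6 DAF. The 2 groups therefore differed in both temperature and age, and these cannot be told apart in this comparison. ZH 6D seeds, of the age of ZH 4D-2DC but kept at normal temperature (2 arrays), are given beside it. Seeds of Hanfeng (HF), a japonica cultivar that the study describes as cold-resistant, treated in the same way at 4 DAF (HF 4D and HF 4D-2DC, 2 arrays each), and ZH seeds treated from 10 DAF (ZH 10D and ZH 10D-2DC, 2 arrays each), give the same before-and-after comparison with no shared array. Both cultivars are given with no transgene or mutation. The labels number the 2 arrays of each group as biological replicates without saying whether they came from separate plants, so that the tests below measure only the spread between these samples.

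In the days after fertilization, the rice endosperm passes from free nuclei to walled cells, these cells divide, and they then fill with starch and storage proteins. Glutelins, prolamins and small albumins are the main storage proteins of the endosperm and are kept in protein bodies. The embryo and the aleurone later make late embryogenesis abundant (LEA) proteins and dehydrins, which protect cells when the seed dries, under the control of abscisic acid (ABA). Chilling slows growth in rice, and in seedlings it induces transcription factors of the DREB family and their target genes.

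Every array held 57381 probe sets with linear signals that the authors had made with MAS5. The 2% trimmed mean was 499.8 to 499.9 on all 16 arrays. The arrays of replicate 1 and replicate 2 stood apart in the same way in all 8 groups, with medians of 85.9 to 172 for replicate 1 and 49.8 to 60.1 for replicate 2. Replicate 1 of ZH 4D correlated more closely with replicate 1 of ZH 4D-2DC (r = 0.862 across probe sets) than with replicate 2 of its own group (r = 0.72), and replicate 2 of the 2 groups also correlated closely (r = 0.927). In ZH 4D, 22.9% of the tested probe sets lay over 4-fold apart between the 2 replicates, and in ZH 4D-2DC 14.6% did. Differences are therefore given over all 4 arrays and also within each replicate number. They are log2 differences of signal + 16, which understate the change of dim probe sets. Where 1 array is left out below, the replicate numbers are no longer balanced between the groups. Such a result also carries the difference between replicate numbers. The signal of one probe set is not set against that of another.

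The markers of the seed's tissues were present. The summed signal of 8 endosperm markers (glutelins, prolamin and starch enzymes) was 347800 and 26930 on the ZH 4D arrays and 434500 and 166500 on the ZH 4D-2DC arrays. Replicate 2 of ZH 4D thus had far less endosperm signal than the other 3 arrays. The 4 embryo markers summed to 4715 and 3102 in ZH 4D and to 5596 and 4529 in ZH 4D-2DC. The 5 aleurone markers, all lipid transfer proteins, summed to 36300 and 46750 in ZH 4D and to 17160 and 65060 in ZH 4D-2DC, and the 7 markers of green maternal tissue to 33690 and 38950 and to 9957 and 32660. The 3 pollen and stamen markers that could be matched summed to at most 146.6 on any of the 4 arrays. In RNA of whole seeds, a smaller share of cells of a type and less RNA per cell cannot be told apart. Of the 8 endosperm markers 5 are storage protein genes that are described below, and the part of the tissue makeup in the results was not tested.

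After the 2 days at 14°C, 6 of 10 storage protein genes and 5 of 9 LEA and dehydrin genes were higher than at 4 DAF, and single genes such as the cyclin CYCB1-3, the zinc transporter ZIP4 and the ethylene enzyme ACO1 were lower. Without replicate 2 of ZH 4D, 2 of the storage protein genes and 1 of the LEA genes were still past the threshold. Of the 34331 probe sets tested with limma, 332 were higher and 267 lower in ZH 4D-2DC at the study's threshold, an unadjusted p under 0.05 with a change of over 2-fold, which is 1.74% of those tested (0.967% higher and 0.778% lower). None passed a Benjamini-Hochberg adjusted p under 0.05 in limma, where the lowest adjusted p was 1 and 599 probe sets had an unadjusted p under 0.05. In the text, a gene "rose" or "fell" only if it passed the study's threshold. Of the 599 probe sets, 598 had the same sign within replicate 1 and within replicate 2, 452 differed by over 2-fold the same way within both (260 higher and 192 lower), and 590 did not overlap between the groups. The threshold was applied to the same arrays, so that these counts are largely set by it and do not measure reproducibility. Of all tested, 26.7% were higher and 28.9% lower within both replicate numbers. Over all tested probe sets, both ZH 4D-2DC arrays lay above both ZH 4D arrays in 11.7% and below both in 10.9%. Across probe sets the differences within replicate 1 and within replicate 2 correlated at r = 0.149. The count was 385 without replicate 1 of ZH 4D-2DC, 946 without replicate 2 of ZH 4D-2DC, 794 without replicate 1 of ZH 4D and 1597 without replicate 2 of ZH 4D. The balance of directions also depended on the arrays and settings, since 55.4% of the 599 were higher, but 33% were higher without replicate 2 of ZH 4D-2DC (312 higher and 634 lower), and 64.1% without replicate 2 of ZH 4D. With no filter on dim probe sets 377 were higher and 387 lower. With replicate number as a block in the fit 1485 probe sets passed, 742 higher and 743 lower.

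The naming rule picked 57 genes, of which 17 rose and 15 fell. These 32 are described, and some of the genes that did not pass are left out. The call of 4 genes stood without each of the 4 arrays in turn and under the 10 other settings tried: RAG1, a seed albumin, EM, a LEA protein, CCA1, a MYB factor of the circadian clock, and CYCB1-3, a B-type cyclin of mitosis. RAG1 gave 635 and 53.8 on the 2 ZH 4D arrays and 7121 and 12895 on the 2 ZH 4D-2DC arrays. EM gave 257 and 114 in ZH 4D and 2220 and 10998 in ZH 4D-2DC. Both treated arrays lay far above both ZH 4D arrays for each of these genes. CCA1 gave 546 and 475 in ZH 4D and 2656 and 3206 in ZH 4D-2DC, and CYCB1-3 gave 637 and 453 against 104 and 111. For CCA1 and CYCB1-3 the replicates of a group lay far closer together than the groups. The log2 differences fitted with limma were 5.49 for RAG1 (SE 1.47), 4.72 for EM (SE 1.11), 2.48 for CCA1 (SE 0.758) and -2.16 for CYCB1-3 (SE 0.664). Without 1 array in turn they ranged from 3.88 to 7.10 for RAG1, from 3.57 to 5.87 for EM, from 2.35 to 2.62 for CCA1 and from -2.40 to -1.93 for CYCB1-3. RAG1 has another, dimmer probe set, at which the log2 difference was 0.84. For the other 28 genes at least 1 array decided the call. Of the 32 calls, 15 stood without replicate 1 of ZH 4D-2DC, 19 without replicate 2 of ZH 4D-2DC, 23 without replicate 1 of ZH 4D and 12 without replicate 2 of ZH 4D.

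Over all 4 arrays the storage protein genes had the highest median of the lists, although within replicate 1 and without replicate 2 of ZH 4D the LEA genes had a higher one (1.71 against 1.49, and 2.07 against 0.80). Of the 10 genes measured, 6 rose (0.967% of all tested probe sets did) and none fell. All 10 were higher within both replicate numbers, which 26.7% of all tested probe sets were. The median log2 difference of the list was 3.92, against -0.02 over all tested probe sets. It was 1.49 within replicate 1 and 6.81 within replicate 2, and with replicate number as a block 9 of the genes rose. Prolamin gave 4187 and 3.04 in ZH 4D and 31517 and 19088 in ZH 4D-2DC, and its log2 difference was 6.44 (SE 1.87). GLUA1, a type A glutelin, gave 5609 and 32.9 in ZH 4D and 24395 and 17623 in ZH 4D-2DC, with a log2 difference of 5.31 (SE 1.82). GLUD1, a type D glutelin, gave 8411 and 21.3 in ZH 4D and 27739 and 11367 in ZH 4D-2DC, with a log2 difference of 4.99 (SE 1.99). In each of these genes the replicates of ZH 4D lay further apart than ZH 4D replicate 1 lay from the treated arrays, replicate 2 being the low one. RA5, an albumin related to RAG1, did not show this spread, with 4851 and 4464 in ZH 4D against 39706 and 30536 in ZH 4D-2DC. Its log2 difference was 2.90 (SE 1.02), with 3.03 within replicate 1 and 2.77 within replicate 2, and it did not pass without replicate 1 of ZH 4D-2DC (2.71). GLUA2 overlapped between the groups, with 27688 and 163 in ZH 4D and 62912 and 24941 in ZH 4D-2DC, and its log2 difference was 4.15 (SE 1.76). At another, dimmer GLUA2 probe set it was -0.82. The 4 genes that did not pass had log2 differences of 3.69 (GLUA3), 3.50 (GLUB-5), 2.56 (RAG2) and 0.58 (GLUB-4).

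**Figure D1:**
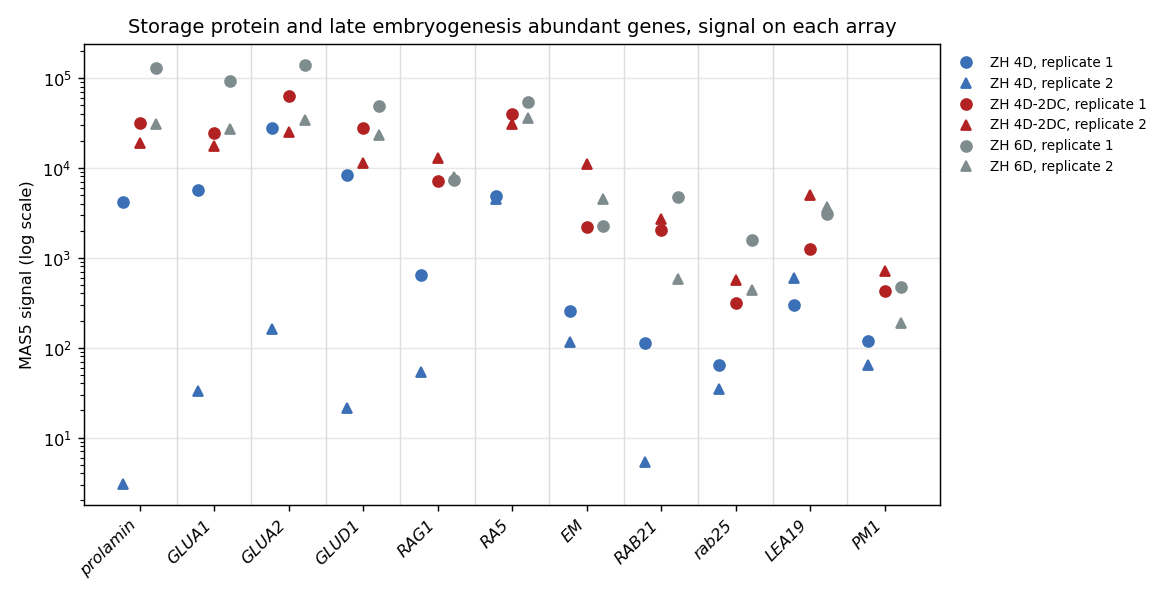
MAS5 signal (log scale) of the storage protein genes and LEA genes that rose, on each array of ZH 4D (blue), ZH 4D-2DC (red) and ZH 6D (grey), with circles for replicate 1 and triangles for replicate 2. Prolamin lies at 3.04 on replicate 2 of ZH 4D and at 19088 or more on the treated arrays, whereas the 2 ZH 4D arrays lie close together for RA5 (4851 and 4464).

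The size of the storage protein shift depended on replicate 2 of ZH 4D, the array with the least endosperm signal. The files used here do not settle whether the seeds of this array were at the stage of those of replicate 1, so that the ZH 4D level of the storage protein genes, and each difference set against it, is uncertain. Without it the median of the list was 0.80 and only 2 of the 10 genes rose, RAG1 and RA5, and the log2 differences were 2.55 for prolamin, 1.88 for GLUA1, 1.08 for GLUD1 and 0.52 for GLUA2. Without replicate 1 of ZH 4D the median was 7.09 and 9 of the 10 genes rose. Without replicate 1 of ZH 4D-2DC the median was 3.20 and 3 genes rose, prolamin, RAG1 and GLUA1. In these fits the replicate numbers were not balanced between the groups, and within replicate 1 alone the median was 1.49. Glutelin genes are a multigene family with closely related sequences, and prolamin and several glutelin probe sets are of the kind that can bind several transcripts, so that their signals may be shared between family members.

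LEA and dehydrin genes were also among those that rose. Of the 9 genes measured, 5 rose (0.967% of all tested probe sets did) and none fell. Within both replicate numbers 8 were higher, which 26.7% of all tested probe sets were. The median log2 difference was 2.44, with 1.71 within replicate 1 and 3.05 within replicate 2. Without 1 array in turn the median kept between 2.07 and 2.80, but the number that rose was 1 without replicate 2 of ZH 4D and 2 without replicate 2 of ZH 4D-2DC. RAB21, a dehydrin induced by ABA, gave 113 and 5.36 in ZH 4D and 2049 and 2710 in ZH 4D-2DC, with a log2 difference of 5.50 (SE 1.74). Another RAB21 probe set gave 3.37. The dehydrin rab25 gave 63.7 and 35.1 in ZH 4D and 315 and 572 in ZH 4D-2DC, a log2 difference of 2.79 (SE 1.09). LEA19, a LEA protein, gave 298 and 591 in ZH 4D and 1240 and 5007 in ZH 4D-2DC, a log2 difference of 2.53 (SE 1.14). These 3 genes did not overlap between the groups. PM1, listed here with the seed maturation proteins, rose by 2.44 (SE 0.991), and its other probe set gave 1.37. RAB16B (1.68), RAB16C (1.06) and RAB16D (0.33), which are close relatives of RAB21, did not pass, and Dhn1 gave -0.69. Without replicate 2 of ZH 4D the log2 differences of RAB21 (4.20), rab25 (2.47), LEA19 (3.0) and PM1 (2.07) did not pass, and EM did. Without replicate 2 of ZH 4D-2DC rab25 (2.38), LEA19 (1.53) and PM1 (2.09) did not pass, and LEA19 also did not without replicate 1 of ZH 4D (2.05). With the arrays centred on their medians 3 LEA genes rose, and LEA19 and PM1 did not. VP1, the transcription factor through which ABA acts on maturation genes, gave 628 and 101 in ZH 4D and 1277 and 1203 in ZH 4D-2DC, and did not pass (log2 difference 2.2, SE 1.11).

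The seeds kept for the same 2 days at normal temperature give the scale of these changes. ZH 4D-2DC and ZH 6D were each compared with the same ZH 4D arrays, and the comparison between them does not use ZH 4D. From 4 to 6 DAF at normal temperature 426 probe sets passed as higher (1.24% of those tested) and 341 as lower (0.993%), 2.23% in all. In ZH 4D-2DC 222 were above ZH 6D (0.647%) and 193 below it (0.562%), 1.21% in all, with none of either comparison at an adjusted p under 0.05 in limma. For the storage protein genes the median log2 difference was 4.76 from ZH 4D to ZH 6D, with 8 of 10 past the threshold, and -0.83 from ZH 6D to ZH 4D-2DC, with none past it. Prolamin gave 129690 and 30602 in ZH 6D, GLUA1 93140 and 26781, and RAG1 7219 and 7939. The prolamin and GLUA1 signals of ZH 6D lay above those of ZH 4D-2DC within each replicate number, and RAG1 did not. The log2 differences of ZH 4D-2DC from ZH 6D were -1.36 for prolamin (SE 1.87), -1.27 for GLUA1 (SE 1.82) and 0.34 for RAG1 (SE 1.47). These errors include the wide spread between the ZH 4D replicates. With them a difference of several fold between the treated seeds and those of their age was not detectable. For the LEA genes the medians were 1.87 from ZH 4D to ZH 6D, with 4 past the threshold, and 0.11 from ZH 6D to ZH 4D-2DC. EM gave 2248 and 4535 in ZH 6D, and RAB21 4735 and 577. COPT1, a copper transporter, passed the threshold against ZH 4D and also against ZH 6D. COPT1 gave 367 and 172 in ZH 4D, 687 and 2117 in ZH 4D-2DC, and 248 and 327 in ZH 6D. Both treated arrays thus lay above the other 4. Its log2 difference was 2.19 from ZH 4D (SE 0.684) and 2.02 from ZH 6D (SE 0.684), and the former no longer passed without replicate 2 of ZH 4D-2DC (1.39) or without replicate 2 of ZH 4D (1.68).

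Probe sets that change after 6 DAF were then read in the treated seeds. Only the arrays of 6, 10 and 12 DAF entered their definition, as those over 4-fold higher or lower in the mean of ZH 10D and ZH 12D than in ZH 6D within both replicate numbers, so that it used none of the 4 compared arrays. Of the 345 probe sets higher later, 65 had risen in ZH 4D-2DC (18.8%, against 0.967% of all tested) and 3 had fallen. In ZH 6D seeds, set against the same ZH 4D arrays, 60 of the 345 had risen and 11 had fallen, with a median log2 difference of 0.46. Of all tested probe sets 1.24% had risen there and 0.993% had fallen. The median of ZH 4D-2DC against ZH 6D was 0.07, with 14 past the threshold as higher and 1 as lower. All of these ZH 6D values use arrays that entered the definition, where a low ZH 6D signal favours entry. They cannot show whether the treated seeds moved further than ZH 6D. In this set 179 were higher within both replicate numbers, which 26.7% of all tested probe sets were. Both treated arrays lay above both ZH 4D arrays in 140, against 11.7% of all tested. The median log2 difference was 0.83, with 0.49 within replicate 1 and 0.96 within replicate 2, and it stayed between 0.66 and 1.07 without 1 array in turn. Of the 140 probe sets lower later, 8 had fallen (5.71%, against 0.778% of all tested) and none had risen. In ZH 6D 9 had fallen, as had 0.993% of all tested, and none had risen. Here too the ZH 6D arrays entered the definition, where a high ZH 6D signal favours entry. The median of this set in ZH 4D-2DC was -0.41, with -0.40 within replicate 1 and -0.55 within replicate 2. It was -0.95 without replicate 1 of ZH 4D-2DC and -0.91 without replicate 2 of ZH 4D. The set higher later held EM, RAG1, RAB21, rab25, LEA19, PM1, HSP18.6, COPT1, ETR4, an ethylene receptor, and MFT2, a relative of the Arabidopsis germination regulator MFT. MFT2 gave 86.0 and 1.60 in ZH 4D and 259 and 203 in ZH 4D-2DC, with a log2 difference of 2.53 (SE 1.01). It passed without replicate 1 of ZH 4D and was lost without replicate 2 of ZH 4D (1.27) and without either ZH 4D-2DC array (2.37 and 2.7). ETR4 gave 35.1 and 9.05 in ZH 4D and 158 and 302 in ZH 4D-2DC, with 2.72 (SE 0.852), and did not pass without replicate 2 of either group (2.28 for ZH 4D-2DC and 2.2 for ZH 4D). BGLU16, a beta-glucosidase, went the other way. It belonged to the set higher later and fell from 193 and 41.1 in ZH 4D to 6.69 and 4.25 in ZH 4D-2DC, a call that stood without replicate 2 of ZH 4D and was lost without each of the other 3 arrays (-2.43 to -1.41).

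**Figure D2:**
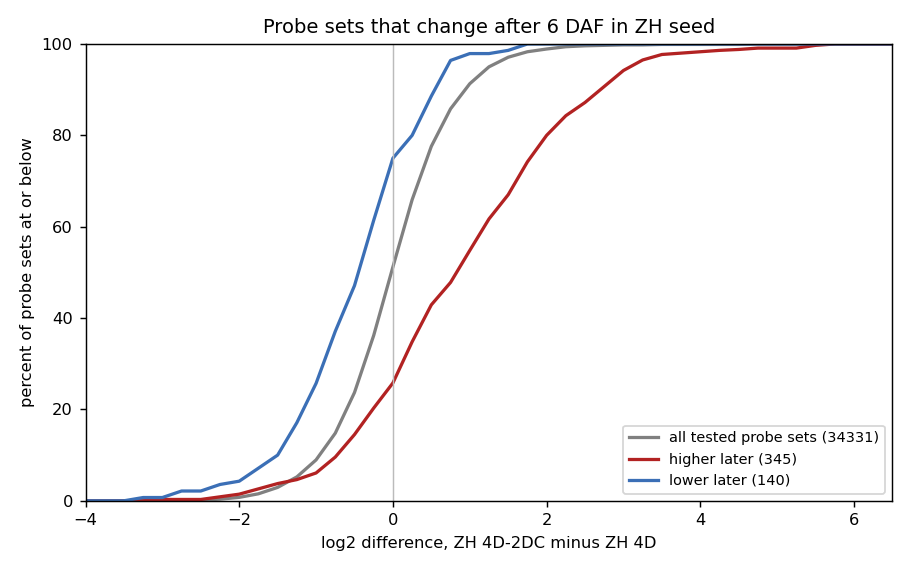
Cumulative percent of probe sets (vertical axis) at or below each log2 difference of ZH 4D-2DC from ZH 4D (horizontal axis), for all 34331 tested probe sets (grey), the 345 that are higher after 6 DAF (red) and the 140 that are lower after 6 DAF (blue). The red curve lies to the right of the grey one, with a median of 0.83, and the blue curve to its left, with a median of -0.41.

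Few genes of cell division passed the threshold, and those that did fell. Of the 32 cyclins and cell cycle kinases measured, 2 fell (6.25%, against 0.778% of all tested probe sets) and none rose. The median log2 difference was -0.30. CYCB1-3 is given above. CYCB2-2, another B-type cyclin, gave 3283 and 2980 in ZH 4D and 1229 and 645 in ZH 4D-2DC, a log2 difference of -1.79 (SE 0.758). At another, dimmer probe set it was 0.62, and the call stood without replicate 1 of ZH 4D-2DC and was lost without each of the other 3 arrays (-1.86 to -1.34). In ZH 6D these cyclins gave 54.7 and 101 (CYCB1-3) and 752 and 675 (CYCB2-2). ZH 4D-2DC differed from ZH 6D by 0.44 for CYCB1-3 (SE 0.664) and 0.32 for CYCB2-2 (SE 0.758). Of 46 kinesins, tubulins and microtubule proteins 1 fell (2.17%, against 0.778% of all tested probe sets). That was KIN14K, a kinesin, which went from 327 and 149 to 17.0 and 57.1. Its log2 difference was -2.28 (SE 0.927) at this probe set and -0.34 at another, and without replicate 1 of either group it did not pass (-1.70 and -1.75). The median of the list was -0.42, with 0.06 within replicate 1 and -0.67 within replicate 2. None of the 29 DNA replication genes passed, and their median was -0.16. PCNA, the sliding clamp of the replication fork, gave 9183 and 5986 in ZH 4D and 4660 and 3399 in ZH 4D-2DC, which did not overlap (log2 difference -0.89, SE 0.606).

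Of 68 genes for cellulose synthases, expansins and wall glucanases, 2 fell (2.94%, against 0.778% of all tested probe sets) and none rose. The median was -0.26. CSLC1, of a family that in Arabidopsis makes the glucan backbone of xyloglucan, gave 1007 and 2031 in ZH 4D and 226 and 375 in ZH 4D-2DC, a log2 difference of -2.23 (SE 0.851). CSLA9, of a family that in Arabidopsis makes mannans, gave 2139 and 4857 in ZH 4D and 922 and 1097 in ZH 4D-2DC, a log2 difference of -1.67 (SE 0.738). In ZH 6D these genes gave 521 and 734 (CSLC1) and 597 and 1251 (CSLA9). The signals of CSLC1 in ZH 6D lay between those of the other 2 groups, and those of CSLA9 overlapped with the treated ones. Without replicate 2 of ZH 4D, CSLA9 differed by -1.08 and CSLC1 by -1.73, and neither passed, and without replicate 1 of ZH 4D-2DC neither did (-1.54 for CSLA9 and -1.89 for CSLC1). CSLA9 also did not pass without replicate 2 of ZH 4D-2DC (-1.79).

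Among the genes with a symbol, the largest falls were those of ACO1, which makes ethylene from its precursor, and ZIP4, a zinc transporter. ACO1 gave 518 and 1043 in ZH 4D and 15.6 and 201 in ZH 4D-2DC, with a log2 difference of -3.18 (SE 0.972). ZIP4 gave 333 and 541 in ZH 4D and 21.2 and 86.3 in ZH 4D-2DC, with -2.84 (SE 0.848). Neither overlapped between the groups, and in ZH 6D they gave 214 and 181 (ACO1) and 188 and 103 (ZIP4). Without replicate 1 of ZH 4D-2DC the log2 differences were -1.79 for ACO1 and -2.11 for ZIP4, past the threshold in neither. The bHLH factor BHLH148 fell by 2.13 on the log2 scale (-1.70 and not past the threshold without replicate 1 of ZH 4D-2DC, and -1.68 without replicate 2 of ZH 4D), the small GTPase RAC7 by 2.07 and AS2 by 2.22. RAC7 and AS2 were at 12.7 and 16.6 on replicate 1 of ZH 4D-2DC, and without that array they differed by -1.29 and -0.91 and did not pass. RAC7 also did not pass without replicate 1 of ZH 4D (-1.79), nor AS2 without replicate 2 of ZH 4D (-1.57). OsOBF1, a bZIP factor, fell by 1.5, the protein phosphatase OsPP2C73 by 1.41 and the zinc finger gene OsC3H43 by 1.40, and each of these calls was lost without at least 3 of the 4 arrays in turn. OsPOLLUX fell by 2.24 at one probe set and gave 1.51 at another, so that its probe sets disagree in direction, and without replicate 1 of ZH 4D-2DC the first gave -0.71, and without replicate 2 of ZH 4D -1.71, past the threshold in neither.

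**Figure D3:**
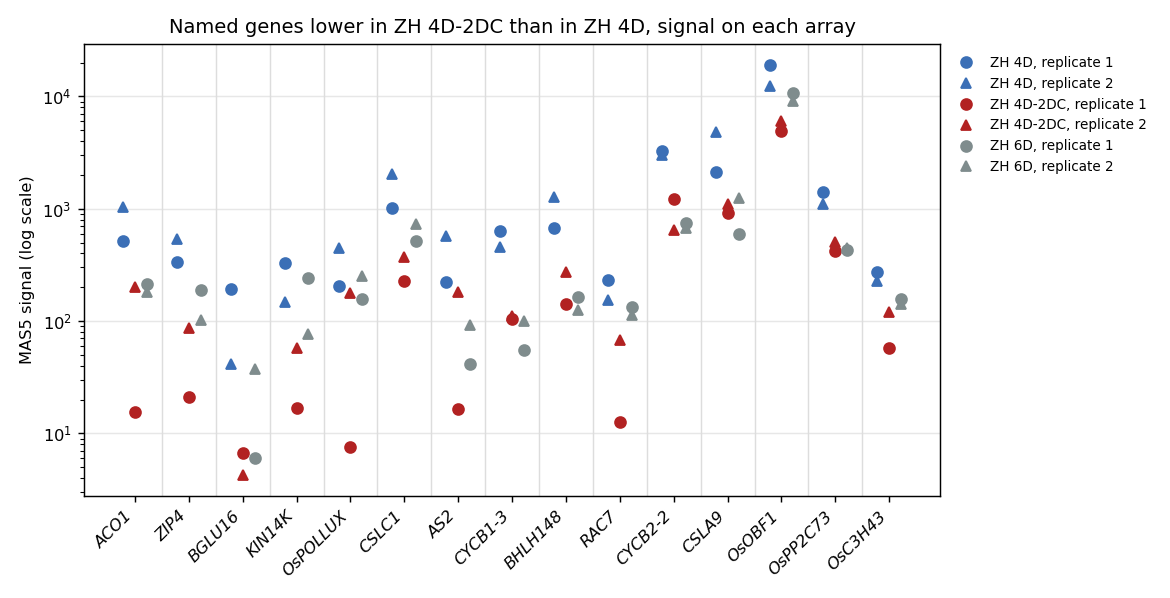
MAS5 signal (log scale) of the 15 named genes that fell, on each array of ZH 4D (blue), ZH 4D-2DC (red) and ZH 6D (grey), with circles for replicate 1 and triangles for replicate 2. All treated arrays lie below both ZH 4D arrays, and for CYCB1-3 the 2 treated values (104 and 111) nearly coincide.

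The genes of starch, sugar and protein handling gave no call. None of the 10 starch synthesis genes passed, and their median log2 difference was 0.02, with -0.32 within replicate 1 and 0.08 within replicate 2. It was -0.91 without replicate 2 of ZH 4D and -0.69 without replicate 1 of ZH 4D-2DC. GBSS1, the Waxy enzyme that makes amylose, gave 129950 and 7381 in ZH 4D and 88453 and 18096 in ZH 4D-2DC at its brightest probe set (log2 difference 0.37, SE 1.43). The other 4 GBSS1 probe sets gave 0.91 to 2.67, none past the threshold. Sbe1, a starch branching enzyme, gave 88426 and 8080 in ZH 4D and 66788 and 23753 in ZH 4D-2DC (0.57, SE 1.22). At the brightest probe set of each gene the treated seeds were lower within replicate 1 and higher within replicate 2. The other Sbe1 probe sets gave 0.42 to 1.72, none past the threshold. Most of the other probe sets of each gene were higher within both replicate numbers. Examples are a GBSS1 probe set (2.3 within replicate 1 and 3.04 within replicate 2) and an Sbe1 probe set (1.36 and 1.81). The exceptions gave -0.27 and 2.09 for GBSS1, and -0.25 and 1.85, and 1.02 and -0.17, for Sbe1. None of 41 genes of sucrose metabolism and sugar transport passed (median 0.01). SWEET11, a sucrose exporter that feeds the filling grain, was close to even on the 4 arrays, with 23847 and 23193 in ZH 4D and 20432 and 22035 in ZH 4D-2DC (log2 difference -0.15, SE 0.621). SUS3, a sucrose synthase, gave -0.55 (SE 0.875). None of 22 endosperm and embryo transcription factors passed (median -0.03), although NFYB1, a nuclear factor Y subunit of the endosperm, gave 2094 and 1704 in ZH 4D and 6718 and 7291 in ZH 4D-2DC, which did not overlap (1.88, SE 1.17). NFYB1 passed the threshold with replicate number as a block. In ZH 6D NFYB1 gave 6789 and 20524. None of 30 genes of protein folding in the endoplasmic reticulum passed (median 0.11). The chaperone BIP1 gave 0.18 (SE 1.12) and the disulfide isomerase OsPDIL1-1 0.13 (SE 0.942), each lower within replicate 1 and higher within replicate 2.

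Few genes known for cold and heat responses passed. Of 29 DREB factors and cold response genes 2 rose (6.9%, against 0.967% of all tested probe sets). They were RAB21 and rab25, the dehydrins given above. The median log2 difference of the list was 0.07. DREB1A gave 269 and 509 in ZH 4D and 272 and 334 in ZH 4D-2DC, and DREB1B gave 34.1 and 2386 and 314 and 371, so that the spread within ZH 4D covered the treated values for both (chosen after their values were seen). None of 20 heat stress transcription factors passed (median 0.40), and HSFB2B gave 158 and 29.2 in ZH 4D and 126 and 121 in ZH 4D-2DC (0.65, SE 1.07). Of 17 small heat shock proteins 1 rose (5.88%, against 0.967% of all tested probe sets), and the median was 0.54. The brighter HSP16.9A (1.13, SE 1.19) and HSP17.9A (0.19, SE 0.672) did not pass. HSP18.6 gave 297 and 116 in ZH 4D and 791 and 3932 in ZH 4D-2DC, a log2 difference of 3.14 (SE 0.967), and its other probe set also rose (3.27). The HSP18.6 signal was thus higher on both treated arrays at both probe sets, and ZH 6D gave 499 and 696 at the brighter one. It did not pass without replicate 2 of ZH 4D-2DC (1.99) or without replicate 2 of ZH 4D (2.51).

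Among 9 clock genes CCA1 rose (11.1%, against 0.967% of all tested probe sets), and a pair of evening genes gave lower values without passing. PRR1, the rice relative of the Arabidopsis evening gene TOC1, gave 953 and 943 in ZH 4D, 441 and 410 in ZH 4D-2DC, and 1144 and 769 in ZH 6D. PCL1, of the evening complex, gave 1350 and 494 in ZH 4D, 523 and 143 in ZH 4D-2DC, and 716 and 645 in ZH 6D. PRR1 was lower on both treated arrays than on the other 4, and PCL1 was lower within each replicate number. The log2 differences from ZH 4D were -1.13 for PRR1 (SE 0.621) and -1.51 for PCL1 (SE 0.726), and those from ZH 6D were -1.11 (SE 0.621) and -1.25 (SE 0.726). Within replicate 1 and replicate 2 the differences from ZH 4D were -1.08 and -1.17 for PRR1 and -1.34 and -1.68 for PCL1, and with replicate number as a block both genes passed the threshold, neither at an adjusted p under 0.05 in limma. CCA1 differed from ZH 6D, where it gave 1763 and 772, by 1.31 (SE 0.758). Signals of clock genes change over the day, and the hour of harvest is not given in the sources used here. PRR73 and PRR95 gave -0.18 and -0.12, and the median of the list was -0.13.

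Of the hormone lists, 12 ethylene genes included 1 that rose (ETR4) and 1 that fell (ACO1). That is 8.33% each way, against 0.967% higher and 0.778% lower of all tested probe sets. None of 29 ABA genes passed (median 0.35). TRAB1, a bZIP factor of ABA responses, gave 5310 and 2527 in ZH 4D and 4091 and 3244 in ZH 4D-2DC, which overlapped (log2 difference -0.01, SE 0.616). Of 47 metal genes COPT1 rose and ZIP4 fell, 2.13% each way. Of 75 calcium signaling kinases and sensors 1 rose (1.33%), which is near the 0.967% of all tested probe sets. That gene, CPK9, a calcium-dependent protein kinase, gave 20.6 and 74.0 in ZH 4D and 144 and 366 in ZH 4D-2DC (2.1, SE 0.853). CPK9 did not pass without replicate 2 of ZH 4D-2DC (1.47) or without replicate 1 of ZH 4D (1.46), nor with quantile normalization (1.86) or median centring (2.16). CAM3, a calmodulin, was even on the 4 arrays, between 10461 and 11687.

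**Figure D4:**
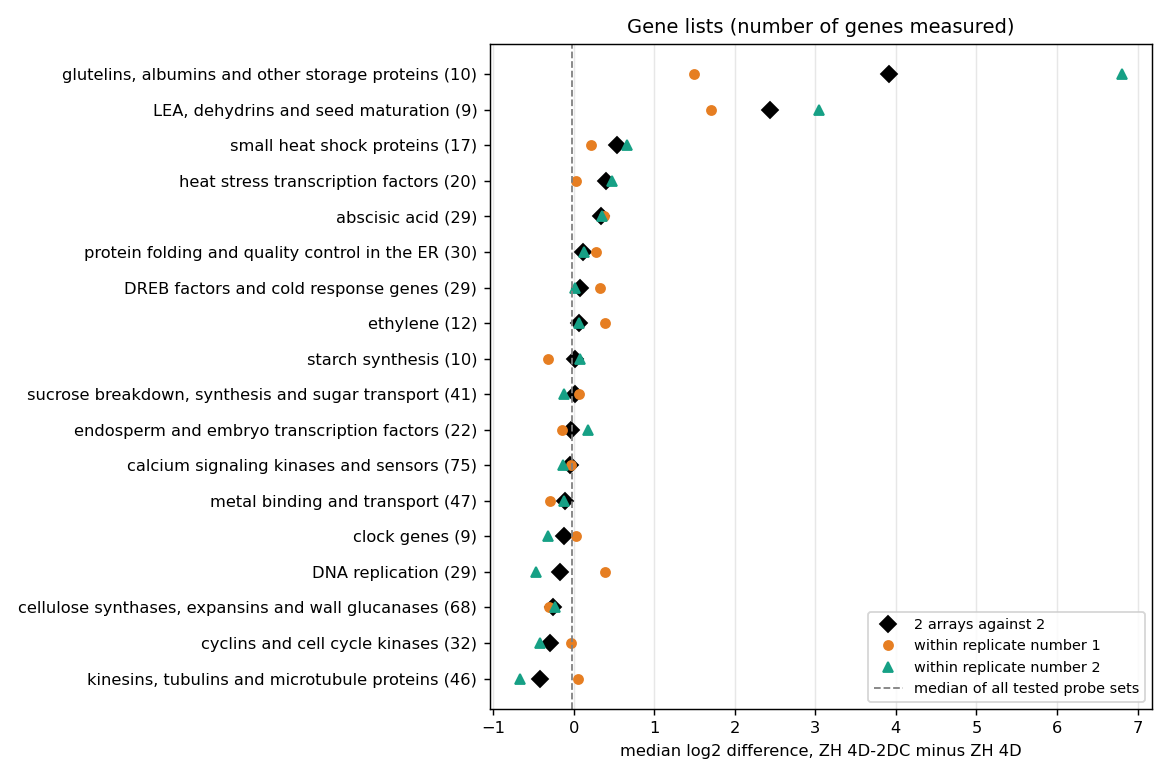
Median log2 difference of ZH 4D-2DC from ZH 4D (horizontal axis) for each gene list, with the number of genes measured in parentheses, over all 4 arrays (black) and within replicate number 1 (orange) and 2 (green). The dashed line is the median of all tested probe sets (-0.02), and the storage protein and LEA lists stand to the right of the others, at 3.92 and 2.44.

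The same before-and-after comparison was read in other arrays, with no array in common. All 16 arrays were fitted together, so that each probe set has the same standard error in these comparisons. A probe set of small spread passes more easily in each of them. The counts of probe sets past the threshold in both are therefore not independent, and the size of this effect was not tested. In HF seeds, where 2.29% of the probe sets passed the threshold, HF 4D-2DC had the same sign against HF 4D as the ZH seeds for 30 of the 32 named genes, and for 82.3% of the 599 probe sets, against 64.6% of all tested. Of the 332 probe sets that rose in ZH, 44 also rose in HF (13.3%, against 0.647% of all tested), and of the 267 that fell 52 also fell (19.5%, against 1.64%). The probe sets past the threshold in both cultivars were 16% of those of ZH and 12.2% of those of HF. The named ones were EM, ETR4, COPT1, CYCB1-3, CSLA9 and ZIP4. ZIP4 gave 978 and 261 in HF 4D and 31.2 and 41.7 in HF 4D-2DC, and COPT1 390 and 234 against 1221 and 883. EM gave 446 and 3866 in HF 4D and 3261 and 17571 in HF 4D-2DC, which overlapped between the groups. The storage protein list had a median of 1.52 in HF, with no gene past the threshold. The HF 4D level of these genes is also uncertain, since 22.5% of the tested probe sets lay over 4-fold apart between its replicates. Replicate 1 of HF 4D was the low one for prolamin (6700 and 27363) and GLUD1 (946 and 21669), and replicate 2 was for RAG1. The difference between the ZH and HF responses passed for 194 probe sets higher in ZH (0.565%) and 51 lower (0.149%), 0.714% in all, none at an adjusted p under 0.05 in limma. With quantile normalization these were 181 and 167, and with median centring 87 and 114, so that the balance of directions changed with the scaling of the arrays. Among the named genes these were RAG1 and, at its dimmer probe set only, HSP18.6 (3.06, SE 1.16, against 1.98 at the brighter one). RAG1 gave 833 and 2.66 in HF 4D and 75.7 and 43.8 in HF 4D-2DC, far below the 7121 and 12895 of ZH 4D-2DC, and the responses differed by 6.26 (SE 2.08). At the dimmer RAG1 probe set they differed by 1.33, which did not pass.

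At 10 DAF the same 2 days at 14°C, read as ZH 10D-2DC against ZH 10D, gave 285 probe sets higher (0.83% of those tested) and 319 lower (0.929%), 1.76% in all. Of the 599 probe sets of 4 DAF, 71.3% had the same sign at 10 DAF, against 55.4% of all tested. Of the 599, 36 passed the same way, which is 6.01% of those of 4 DAF and 5.96% of those of 10 DAF. As with HF, the shared standard errors keep this count from being independent. Storage protein genes had a median of 0.46 at 10 DAF and LEA genes of 0.73. Prolamin was already at 118690 and 49266 in ZH 10D, RAG1 at 78124 and 48740 and EM at 30939 and 38529, above every ZH 4D and ZH 4D-2DC array. CYCB1-3 moved the other way, from 35.0 and 27.0 in ZH 10D to 108 and 178 in ZH 10D-2DC. The difference between the 4 DAF and 10 DAF responses passed for 7 named genes (363 probe sets in all, 1.06%, none at an adjusted p under 0.05 in limma). It was 6.02 for prolamin (SE 2.65), 4.97 for RAG1 (SE 2.08) and 3.99 for EM (SE 1.57). It was -3.89 for CYCB1-3 (SE 0.939), -3.45 for ACO1 (SE 1.37), -3.17 for KIN14K (SE 1.31) and -2.73 for ZIP4 (SE 1.20). At other probe sets it was 6.27 for prolamin, and 1.34 for RAG1 and -1.82 for KIN14K, which did not pass. The size for prolamin depended on replicate 2 of ZH 4D. Without that array its response at 4 DAF was 2.55, and at 10 DAF it was 0.42. Of the 363 probe sets 154 were higher at 4 DAF (0.449% of those tested) and 209 lower (0.609%), and these were 263 and 236 with quantile normalization and 133 and 123 with median centring.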

How the data were processed

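Total RNA of whole seeds was extracted with TRIzol, labelled with biotin and hybridized to the Affymetrix rice genome array, 1 array per sample. The deposited values are linear intensity signals that the authors made with MAS5 (version not given in the sources used here), scaled to a 2% trimmed mean of about 500. GC-RMA, which the study's methods name instead, summarises the probes in another way. The number of arrays limits the precision. Detection calls were not used here.

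The analysis used log2(signal + 16). After removal of 187 array controls and of probe sets whose mean over the 16 arrays did not exceed the 40th percentile, 34331 remained for testing. The package limma 3.58.1 in R 4.3.3 (lmFit, then eBayes, two-sided) fitted all 16 arrays with 1 coefficient for each of the 8 groups, and the script was tested on simulated data. A permutation test of 2 arrays against 2 cannot go below p = 0.33 and was not used. Counts took the threshold of the study's methods, over 2-fold with an unadjusted p under 0.05. Every Benjamini-Hochberg adjusted p of the main comparison was 1, so no probe set passed after adjustment, only effect sizes with their standard errors (SE) are printed for genes, and a call in the text means that a gene passed the study's threshold.

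Of the 57381 probe sets, 22436 had a single gene in the array annotation, 95 had more than one and 34850 had no entry. Gene names came from RefSeq's table for assembly ASM3414082v1, which held all of these single genes and a name for 2456 of them (3191 probe sets). No coordinate or sequence was used. Where a gene had several probe sets, the brightest on average over the 16 arrays stood for it. A gene with the symbol GLB was left out of the storage protein list because it could not be taken for a globulin. MBF1C, TOC1 under that name, RRTF1 and the pollen marker MST8 were not matched.

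The members and the gene lists were chosen with earlier results of these data known. The genes named are the 15 largest increases and the 15 largest decreases among genes with a name past the threshold with the same sign within both replicate numbers, up to 4 members past the threshold in each described list or otherwise the 2 of the highest mean, and genes that the paper names for low temperature in seed. A part of the rule for genes with a description and no symbol could not be applied, because the annotation used holds no descriptions. The closing section gives the alternatives, which changed the pseudocount, the filter, the scaling, the arrays fitted and the replicate block, left out each array in turn, or used all probe sets of a list's genes.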

Additional observations from a re-analysis of the deposited data

Results flagged for a closer look

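For 8 responses of named genes, the same before-and-after comparison came out differently in another set of seeds, by an unadjusted limma p under 0.05 for the difference itself and a difference of over 2-fold. None has an adjusted p under 0.05, and a permutation of 2 arrays against 2 cannot reach that level. The response of RAG1, a seed albumin, was 6.26 higher on the log2 scale in ZH than in HF. Between 4 DAF and 10 DAF, the response was higher at 4 DAF by 6.02 for prolamin, 4.97 for RAG1 and 3.99 for EM. The difference was -3.89 for CYCB1-3, -3.45 for ACO1, -3.17 for KIN14K and -2.73 for ZIP4. At the other probe sets of RAG1 (1.34) and KIN14K (-1.82) it did not pass, and neither did the RAG1 difference from HF (1.33). Without replicate 2 of ZH 4D the prolamin response at 4 DAF was 2.55, not 6.44. For CYCB1-3 the signs were opposite on all arrays, both ZH 4D-2DC arrays lying below both ZH 4D arrays and both ZH 10D-2DC arrays above both ZH 10D arrays. With 2 arrays a group, no array was tested for standing apart from its group.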

How the results depend on the processing

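No named gene that was called reversed its direction under the alternatives run. The balance of higher and lower probe sets did turn in some of them, as given above. The number of probe sets past the threshold between ZH 4D-2DC and ZH 4D was 386 with median centring and 376 when only the 4 arrays compared were fitted. The difference from the HF response counted 110 with a pseudocount of 64, 495 with no filter and 84 with a filter at the 60th percentile, and the difference from the 10 DAF response 625 with no filter and 167 with the filter at the 60th percentile. In the main fit the count at an adjusted p under 0.05 in limma was 0 in all 5 comparisons. With median centring 3 LEA genes rose. Median centring also shifted the median of all probe sets to -0.30 in the difference from HF and to 0.28 in the difference from 10 DAF.

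Leaving out 1 array in turn gave 385 to 1597 probe sets for ZH 4D-2DC against ZH 4D, 317 to 1392 for ZH 6D against ZH 4D, 232 to 889 for ZH 4D-2DC against ZH 6D, 153 to 1403 for the difference from HF and 205 to 1051 for the difference from 10 DAF. The list medians ranged from 0.80 to 7.09 for storage proteins, -0.91 to 0.24 for starch synthesis, -0.37 to 0.34 for DNA replication, -0.14 to 0.36 for calcium signaling, -0.17 to 0.31 for endosperm and embryo factors, -0.017 to 0.39 for protein folding and -0.95 to -0.32 for the probe sets lower later. The number that rose was 2 to 9 for storage proteins and 1 to 5 for LEA genes. Where a group was left with 1 array, that array was assumed to vary like the other groups. Its replicate number was then set against both numbers of the other group.

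With replicate number as a block the counts were 1485 for ZH 4D-2DC against ZH 4D, 1658 for ZH 6D against ZH 4D, 1128 for ZH 4D-2DC against ZH 6D, 688 for the difference from HF and 939 for the difference from 10 DAF, and with quantile normalization and the block 1430, 1565, 1104, 671 and 1005. All 32 named calls stood under the block, and NFYB1, HSFB1, PRR1 and PCL1 also passed (PCL1 also with a pseudocount of 64, the filter at the 60th percentile and median centring), with none at an adjusted p under 0.05 in limma. The deviations of same-numbered arrays correlated at r = 0.638 between ZH 4D and ZH 4D-2DC and above 0.1 in all 28 pairs of groups. The labels do not say what a number marks and the groups compared hold 2 pairs, so the fit without the block was kept as the main one. Of the 32 named calls, 21 stood with median centring, 28 with quantile normalization and 22 with only the 4 arrays compared.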

Other observations

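Genes that the annotation gives only a number include some of the clearest changes between the replicates and groups. They are named here after their values were seen, as the probe sets of the smallest limma p in each direction among such genes. The brightest probe set of a gene was not preferred here. LOC4331818 and LOC4336210 each have another probe set, whose values are not given. LOC4340902 gave 4.62 and 4.96 in ZH 4D and 408 and 472 in ZH 4D-2DC, a log2 difference of 4.45 (SE 0.914), and it gave 337 and 88.4 in ZH 6D and 7197 and 11743 in ZH 10D. It was thus near the floor of the array at 4 DAF, present on both treated arrays and far higher later. LOC4331818 gave 18.4 and 29.6 in ZH 4D and 229 and 171 in ZH 4D-2DC, and 117 and 238 in ZH 6D. Among those that fell, LOC4336210 gave 90.7 and 163 in ZH 4D, 8.95 and 8.21 in ZH 4D-2DC and 86.6 and 177 in ZH 6D. Its treated values lay below all the others, with a log2 difference of -2.49 from ZH 4D (SE 0.57) and -2.52 from ZH 6D. In HF the same gene gave 133 and 125 in HF 4D and 17.8 and 22.6 in HF 4D-2DC. LOC4325827 gave 438 and 392 in ZH 4D, 23.2 and 73.0 in ZH 4D-2DC and 130 and 149 in ZH 6D.

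Where 1.74% of all tested probe sets passed the threshold, the other 16 gene lists, with 383 members measured, held 1 member past it. It was a gene with the symbol PDHE1-A, a subunit of pyruvate dehydrogenase, which rose by 2.09 (SE 0.83). Another gene carries the same symbol and gave 0.50. The medians of these lists lay between -0.45, for histones and chromatin assembly, and 0.75, for phytic acid and inositol phosphate genes, against -0.02 over all tested probe sets.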
